A study of Mus musculus with 6 samples.

Results

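Transcripts of 10 genes that encode histone acetyltransferases (Kat2a, Kat2b, Kat5, Kat6a, Kat6b, Kat7, Kat8, Ep300, Crebbp and Hat1) were measured by bulk RNA sequencing in mouse lung endothelial cells. The genes were chosen by symbol, and all 10 were found among the 18956 genes of the deposited table. The cells were labelled wild type and Cre-negative (WT, 3 libraries) or CSE-KO and Cre-positive (CSE-KO, 3 libraries). CSE is cystathionine gamma-lyase, the enzyme encoded by Cth that releases cysteine from cystathionine. The study's title joins cystine import and breakdown to histone acetylation, and the comparison asks how the transcripts of the enzymes that write this mark differed between the libraries labelled CSE-KO and WT. The sources used here name neither the Cre driver nor the age of the mice, nor whether the 3 libraries of a group came from separate animals or cultures. P-values therefore rest on the spread among libraries alone, and this spread may be technical.

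Histone acetyltransferases move the acetyl group of acetyl-CoA to lysines of histone tails, which loosens chromatin and forms docking sites for bromodomain and YEATS domain proteins. They fall into families. The MYST family holds KAT5 to KAT8, the GNAT family holds KAT2A and KAT2B with the more distant HAT1, and p300 and CBP form a family of their own. Most work as the catalytic subunit of a large complex whose other subunits choose the histone and the lysine. Because the mark is made from acetyl-CoA, histone acetylation is known to respond to the metabolic state of a cell as well as to the amount of enzyme, which transcripts do not show.

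Of the 10 genes, 4 rose in CSE-KO (Kat8, Kat5, Kat6b and Ep300), 4 fell (Kat2b, Kat2a, Kat6a and Kat7) and 2 did not pass the test (Crebbp and Hat1). A call needed an adjusted p under 0.05 (limma, Benjamini-Hochberg over all 13750 genes tested). In this comparison 77.4% of all tested genes were called, 38.3% higher and 39.0% lower, so 8 of 10 is near the background and is no result about these enzymes. The median log2 fold change of the 10 genes was 0.01, and that of all tested genes was 0.00. The median size of the change without its sign was 0.32 for the 10 genes and 0.43 for all tested genes. Against a fold of 1.2 in either direction, 5 of the 10 genes passed (Kat8, Kat5, Kat2b, Kat2a and Kat6a), where 48.8% of all tested genes did. Without CSE-KO 1, the library that stood apart from the others of its group, 4 of the 10 genes were again called higher and 4 lower, and the same counts were found with the WT libraries counted as 1 sample. With equal totals 5 were higher and 3 lower, since Crebbp gained a call (log2 fold change 0.11, adjusted p = 0.032) and Kat7 lost its own (adjusted p = 0.053).

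**Figure D1:**
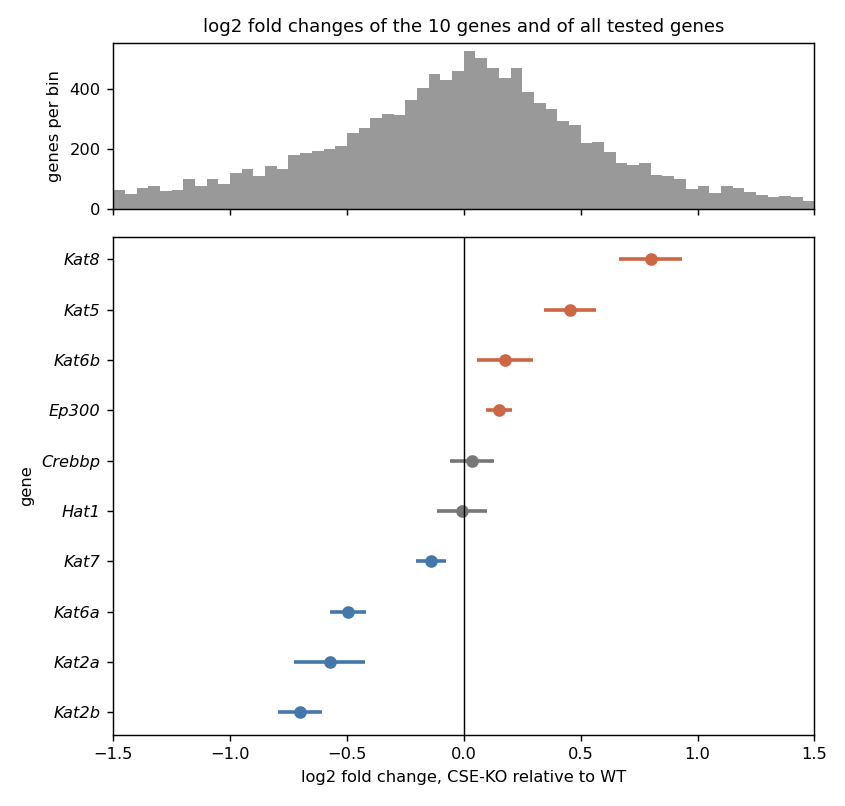
Lower panel: log2 fold change (CSE-KO relative to WT) of each of the 10 genes as a point with its 95% confidence interval, in orange for genes that rose, blue for genes that fell and grey for genes that did not pass. Upper panel: number of tested genes in each bin of the same axis (1810 of 13750 genes lie beyond 1.5 on either side and are not drawn). The 10 genes run from 0.80 for Kat8 to −0.70 for Kat2b, inside the bulk of all tested genes.

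Kat8 and Kat2b had the largest rise and the largest fall of the 10 genes, and the 250 bases before their RefSeq start sites (build GRCm38.p6, plus strand for both, 5′ to 3′) show what lies next to the gene at each end of the range. Capitals mark the CCAAT box (CCAAT or ATTGG) and the GC box (GGGCGG or CCGCCC).
Kat8, chr7:127912267-127912516: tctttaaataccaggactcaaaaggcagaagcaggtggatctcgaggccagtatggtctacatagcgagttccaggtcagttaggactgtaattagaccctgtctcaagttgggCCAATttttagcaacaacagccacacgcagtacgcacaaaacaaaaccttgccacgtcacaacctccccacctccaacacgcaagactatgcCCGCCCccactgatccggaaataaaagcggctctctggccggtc
Kat2b, chr17:53566721-53566970: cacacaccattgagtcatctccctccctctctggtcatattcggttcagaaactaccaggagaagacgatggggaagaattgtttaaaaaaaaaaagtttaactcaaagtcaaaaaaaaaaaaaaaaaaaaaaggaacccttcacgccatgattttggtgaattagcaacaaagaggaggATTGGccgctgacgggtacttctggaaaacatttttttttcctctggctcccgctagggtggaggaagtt
The Kat8 window held 1 CCAAT box, which begins 136 bases before the start, and 1 GC box, which begins 44 bases before it. The Kat2b window held 1 CCAAT box, which begins 70 bases before the start, and no GC box. Its G and C content was 40.8%, against 51.2% for Kat8. The RefSeq start of Kat2b lies 110 bases inside the gene start of the deposited table, and RefSeq lists 2 start sites for each of these 2 genes, of which the one nearest to the table was used.

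A window was found for 9 of the 10 genes. In these windows, searched on both strands, 0 of 9 held the cAMP response element TGACGTCA, to which CREB recruits CBP and p300. This element occurred in 1.55% of all 32851 RefSeq windows of the same length. The letters TGATGCAA, a core form of the amino acid response element, were also in 0 of 9, against 0.792% of all windows. The CCAAT box was in 5 of 9 (33.85% of all windows) and the GC box in 5 of 9 (32.7%). The windows of Kat6b, Ep300, Crebbp and Hat1 end 18336, 863, 593 and 302 bases from the gene start of the deposited table, and these 4 and Kat8 are the 5 with a GC box. Only the Kat8 window among them lies at the table's start, and the counts describe RefSeq windows. These are matches of letters in a short window and show neither binding nor its absence.

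The values were whole-number normalized counts, that is read counts divided by a factor for each library and rounded, as read from the values. Their totals lay between 6028772 and 6052275 for WT and between 5698922 and 5765008 for CSE-KO. The target gene Cth gave 29, 27 and 26 (WT) and 49, 43 and 63 (CSE-KO), and was called higher (1.85-fold, log2 fold change 0.89, adjusted p = 0.00079), which goes against the label. The sources used here do not name the deleted exons. WT and CSE-KO stand here for what the libraries are labelled, and every direction rests on those labels. The index of squared difference over sum was between 0.709 and 0.757 among the WT libraries and 0.860 between CSE-KO 2 and 3. CSE-KO 1 stood apart from CSE-KO 2 and 3 (1.63 and 1.92). Counting noise gives about 1 for undivided read counts. The factors that divided these counts are not known, so the index cannot be set against counting noise here. The groups did not overlap in 8 of the 10 genes, and in 80.4% of all tested genes. Among the 10 genes, CSE-KO 1 was the CSE-KO library nearest to the WT mean in 5.

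Kat8, also known as MOF, makes acetylated lysine 16 of histone H4 in the MSL and NSL complexes. In normalized counts, libraries 1 to 3 of each group gave 163, 179 and 168 (WT) and 294, 288 and 306 (CSE-KO). All CSE-KO libraries were far above all WT libraries, with little spread inside either group. The mean went from 170 ± 8.19 to 296 ± 9.17 (SD, n = 3 libraries here and below), a 1.74-fold rise (log2 fold change 0.80, SE 0.06, adjusted p = 3.5e-07). The gene (ENSMUSG00000030801) spans 127912516 to 127925837 of chromosome 7 in build mm10, plus strand. Its exons share 122 bases with Prss8 on the opposite strand, 4.22% of its exonic length, and no row of the table carried that symbol.

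Kat5, or TIP60, is the catalytic subunit of the NuA4 complex, which acetylates histones H4 and H2A and takes part in DNA repair. It gave 327, 347 and 333 (WT) and 437, 456 and 488 (CSE-KO). The groups did not overlap, and the mean rose from 335.7 ± 10.3 to 460.3 ± 25.8 (1.37-fold, log2 fold change 0.45, SE 0.05, adjusted p = 7.2e-06). The gene (ENSMUSG00000024926) spans 5603014 to 5610237 of chromosome 19, minus strand. Rnaseh2c, on the other strand, covers 426 of its exonic bases (12.1%), and the counting is not stated to have used strand. Rnaseh2c itself was lower in CSE-KO, with 191, 190 and 173 (WT) and 131, 120 and 122 (CSE-KO).

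Kat6a (MOZ) and Kat6b (MORF) are close paralogs that acetylate histone H3 in complexes with BRPF proteins. Kat6a gave 1512, 1551 and 1517 (WT) and 1111, 1019 and 1121 (CSE-KO), and every CSE-KO library was below every WT library. The mean fell from 1527 ± 21.2 to 1084 ± 56.2 (log2 fold change −0.50, SE 0.04, adjusted p = 2.3e-07), or 1.41-fold. Kat6b gave 425, 488 and 479 (WT) and 513, 513 and 545 (CSE-KO). Its groups did not overlap, but the gap between the highest WT and the lowest CSE-KO library was smaller than the spread inside WT, where WT 1 was low. The rise was 1.13-fold (from 464 ± 34.1 to 523.7 ± 18.5, log2 fold change 0.18, SE 0.05, adjusted p = 0.011), and the call was lost without the mean trend and robust variances (adjusted p = 0.052). Kat6a (ENSMUSG00000031540) spans 22859535 to 22943259 of chromosome 8 and Kat6b (ENSMUSG00000021767) spans 21481434 to 21672478 of chromosome 14, both on the plus strand.

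Kat7, or HBO1, acetylates histones H3 and H4 with JADE or BRPF subunits and is linked to the licensing of replication origins. It gave 896, 924 and 906 (WT) and 841, 803 and 832 (CSE-KO). The groups did not overlap, and the fall was small, 1.10-fold (from 908.7 ± 14.2 to 825.3 ± 19.9, log2 fold change −0.14, SE 0.03, adjusted p = 0.0011). With libraries scaled to equal totals the log2 fold change was −0.07 and the call was lost (adjusted p = 0.053). The gene (ENSMUSG00000038909) spans 95274259 to 95310246 of chromosome 11, minus strand.

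**Figure D2:**
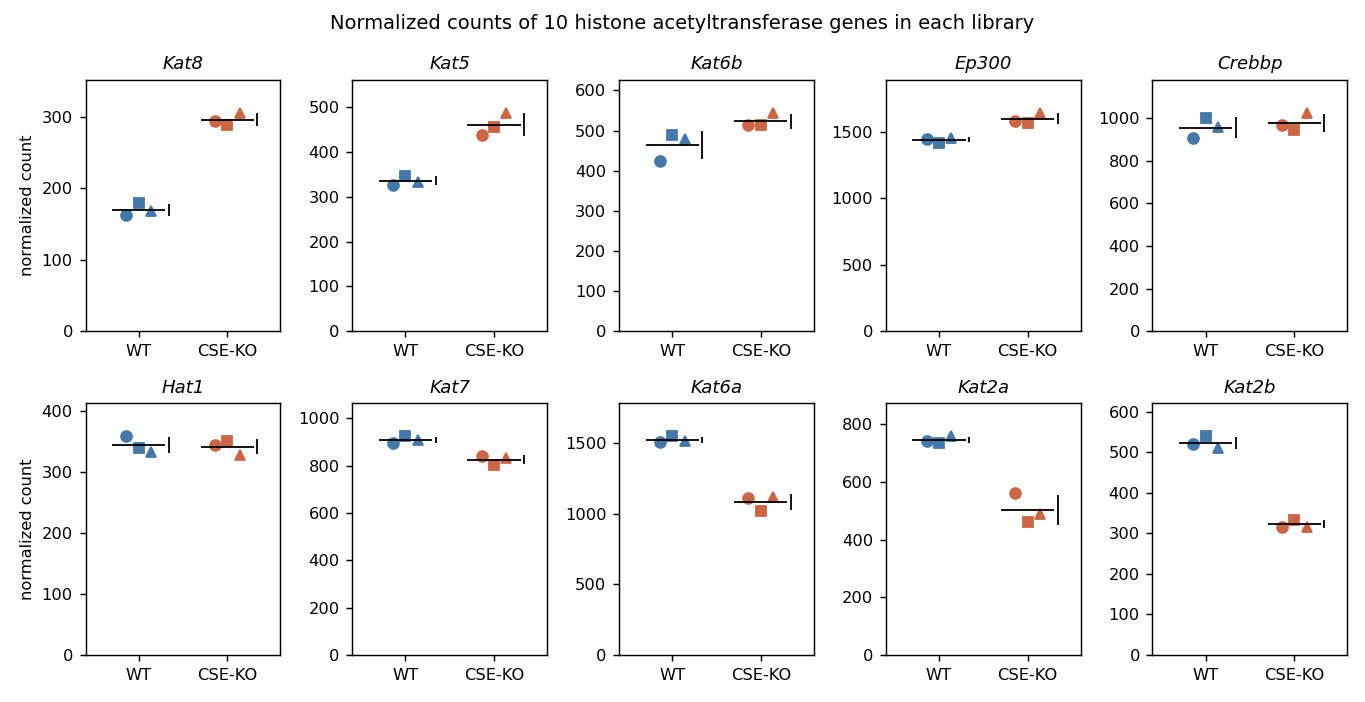
Normalized count (vertical axes, from 0) of each of the 10 genes in the 3 WT (blue) and 3 CSE-KO (orange) libraries, ordered from the largest rise to the largest fall. Circles, squares and triangles are libraries 1, 2 and 3, horizontal lines are means and vertical bars are ± 1 SD. The groups are separate in 8 genes and overlap in Crebbp and Hat1.

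Kat2a (GCN5) and Kat2b (PCAF) are alternative catalytic subunits of the SAGA and ATAC coactivator complexes, which acetylate histone H3 at promoters. Kat2b gave 521, 540 and 511 (WT) and 316, 334 and 317 (CSE-KO), so that all CSE-KO libraries lay well below all WT libraries. Its mean fell from 524 ± 14.7 to 322.3 ± 10.1, or 1.62-fold (log2 fold change −0.70, SE 0.04, adjusted p = 6.4e-08). Kat2a gave 743, 736 and 758 (WT) and 561, 460 and 487 (CSE-KO). It fell 1.49-fold, from 745.7 ± 11.2 to 502.7 ± 52.3 (log2 fold change −0.57, SE 0.07, adjusted p = 5.1e-05), with CSE-KO 1 as the highest of the CSE-KO libraries. Kat2a (ENSMUSG00000020918) spans 100704746 to 100712465 of chromosome 11, minus strand, and Kat2b (ENSMUSG00000000708) spans 53566861 to 53672720 of chromosome 17, plus strand.

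Hat1 acetylates newly made histone H4 before it is placed on DNA, so its work is tied to replication. It gave 358, 338 and 333 (WT) and 344, 351 and 328 (CSE-KO), and the groups overlapped. The means were 343 ± 13.2 and 341 ± 11.8 (log2 fold change −0.01, 95% confidence interval −0.12 to 0.10, adjusted p = 0.883), an interval from 0.923-fold to 1.07-fold. The sign of this value turned with upper-quartile scaling, with equal totals, without WT 1 and without CSE-KO 3. Of 13 replication genes, 12 fell in the same libraries and 0 rose, where 39.0% of all tested genes were called lower. Their median log2 fold change was −0.50. The largest falls were those of the histone chaperones Asf1b (from 322.7 ± 8.02 to 92.0 ± 15.7) and Chaf1a (from 684 ± 17.1 to 339 ± 23.8). Next came the chromatin assembly subunit Chaf1b (from 276 ± 8.19 to 145.3 ± 7.09) and the nucleotide reductase subunit Rrm1 (from 1163 ± 11.6 to 705.3 ± 49.0). Other replication genes changed little, with log2 fold changes of −0.08 for Mcm3, −0.08 for Mcm4 (not called), −0.14 for Rrm2 and −0.19 for Pcna. Hat1 (ENSMUSG00000027018) spans 71388958 to 71441622 of chromosome 2, plus strand.

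Ep300 and Crebbp encode p300 and CBP, large coactivators that acetylate histone H3 lysine 27 at enhancers and are recruited by many transcription factors. Ep300 gave 1449, 1419 and 1455 (WT) and 1579, 1570 and 1645 (CSE-KO), with no overlap. The rise was small, 1.11-fold (from 1441 ± 19.3 to 1598 ± 41.0, log2 fold change 0.15, SE 0.03, adjusted p = 0.00023). Crebbp gave 906, 1003 and 959 (WT) and 967, 944 and 1027 (CSE-KO), and its groups overlapped. Its means were 956 ± 48.6 and 979.3 ± 42.9 (log2 fold change 0.04, 95% confidence interval −0.06 to 0.13, adjusted p = 0.467). With equal totals Crebbp passed (log2 fold change 0.11, adjusted p = 0.032), and without WT 1 its value was −0.0030. Ep300 (ENSMUSG00000055024) spans 81585351 to 81652077 of chromosome 15, plus strand, and Crebbp (ENSMUSG00000022521) spans 4081328 to 4213997 of chromosome 16, minus strand.

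The order of the enzymes by transcript level differed between the groups. Levels between genes were compared as normalized counts per kilobase of exon, with the exons of all annotated transcripts merged. In WT the order was Kat2a (214.3 ± 3.23), Kat6a (166.3 ± 2.31), Kat7 (164.1 ± 2.56), Hat1 (118.8 ± 4.58), Kat2b (107.7 ± 3.03), Ep300 (101 ± 1.35), Kat5 (95.7 ± 2.92), Crebbp (70.6 ± 3.59), Kat8 (58.8 ± 2.83) and Kat6b (27.6 ± 2.03). Only Kat6a and Kat7 among these neighbours overlapped between libraries. In CSE-KO the order was Kat7 (149.1 ± 3.59), Kat2a (144.4 ± 15.0), Kat5 (131.2 ± 7.35), Hat1 (118.2 ± 4.09), Kat6a (118 ± 6.12), Ep300 (112 ± 2.87), Kat8 (102.4 ± 3.17), Crebbp (72.3 ± 3.17), Kat2b (66.2 ± 2.08) and Kat6b (31.1 ± 1.10). There Kat7 overlapped with Kat2a, Kat2a with Kat5, Hat1 with Kat6a and Kat6a with Ep300. Merged exons include those of transcripts that the cells may not use, so that a long annotated model can lower the value. The part of model length in the low value of Kat6b was not tested.

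**Figure D3:**
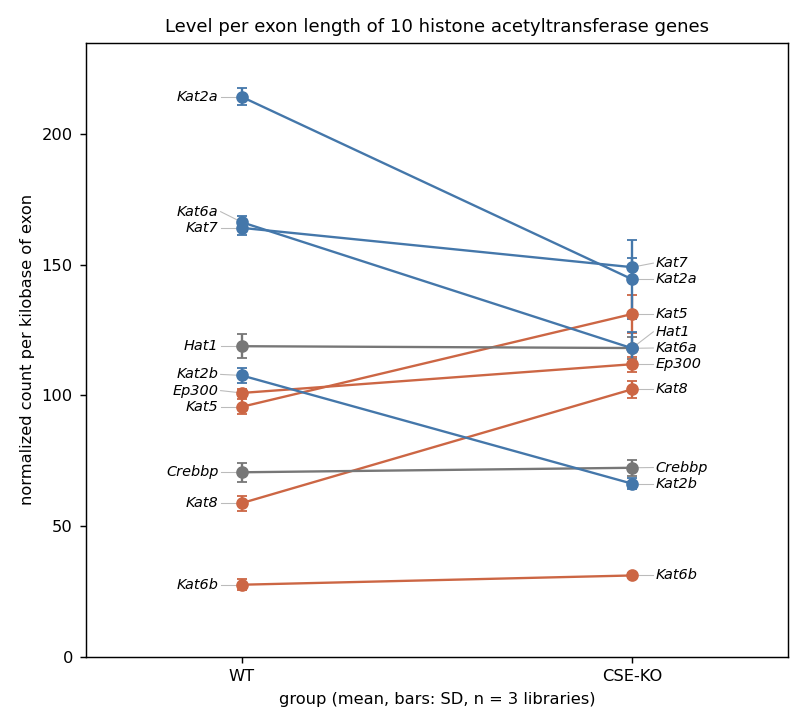
Normalized count per kilobase of merged exon (vertical axis, from 0) of the 10 genes in WT and CSE-KO, as means with bars of ± 1 SD over 3 libraries. Orange lines are genes that rose, blue lines genes that fell and grey lines genes that did not pass. The levels spread from 27.6 to 214.3 in WT and from 31.1 to 149.1 in CSE-KO.

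Taken as shares of the summed level per kilobase of the 10 genes in each library, which do not depend on the scaling between libraries, Kat2a held 18.6% to 19.4% in WT and 13.0% to 15.3% in CSE-KO. Kat8 held 5.06% to 5.44% in WT and 9.62% to 9.99% in CSE-KO. Kat5 held 8.36% to 8.68% in WT and 11.8% to 13.1% in CSE-KO, and Kat6a 14.7% to 14.8% in WT and 10.9% to 11.5% in CSE-KO. Of the 10 genes only Hat1 had shares that overlapped between the groups (10.3% to 11.1% in WT and 10.7% to 11.9% in CSE-KO). Even Crebbp, which had no call, was apart (6.00% to 6.51% in WT and 6.76% to 7.16% in CSE-KO). By normalized count the groups were apart in 80.4% of all tested genes, so separate shares are no result about these enzymes. The summed level itself was 1114, 1139 and 1121 per kilobase (WT) and 1057, 1018 and 1060 (CSE-KO). A share depends on the other 9 genes as well as on its own.

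Paralogs were also set against each other within each library. The log2 ratio of Kat6a to Kat6b was 1.83, 1.67 and 1.66 (WT) and 1.11, 0.99 and 1.04 (CSE-KO). The groups were apart, with means of 1.72 ± 0.10 and 1.05 ± 0.06, a difference of −0.67. The ratio of Ep300 to Crebbp was 0.68, 0.50 and 0.60 (WT) and 0.71, 0.73 and 0.68 (CSE-KO), which put the groups just apart with a difference of 0.11. The ratio of Kat2a to Kat2b was 0.51, 0.45 and 0.57 (WT) and 0.83, 0.46 and 0.62 (CSE-KO), and the groups overlapped. Its difference of 0.13 went to 0.03 without CSE-KO 1 and to 0.21 without CSE-KO 2. Without WT 2 the difference for Ep300 to Crebbp was 0.07. The 2-sided exact permutation p was 0.10 for Kat6a to Kat6b and for Ep300 to Crebbp and 0.40 for Kat2a to Kat2b (0.15, 0.15 and 0.40 after Benjamini-Hochberg adjustment over 3 pairs). With 3 libraries against 3, 0.10 is the smallest p that can be reached, so no ratio could pass a threshold of 0.05.

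**Figure D4:**
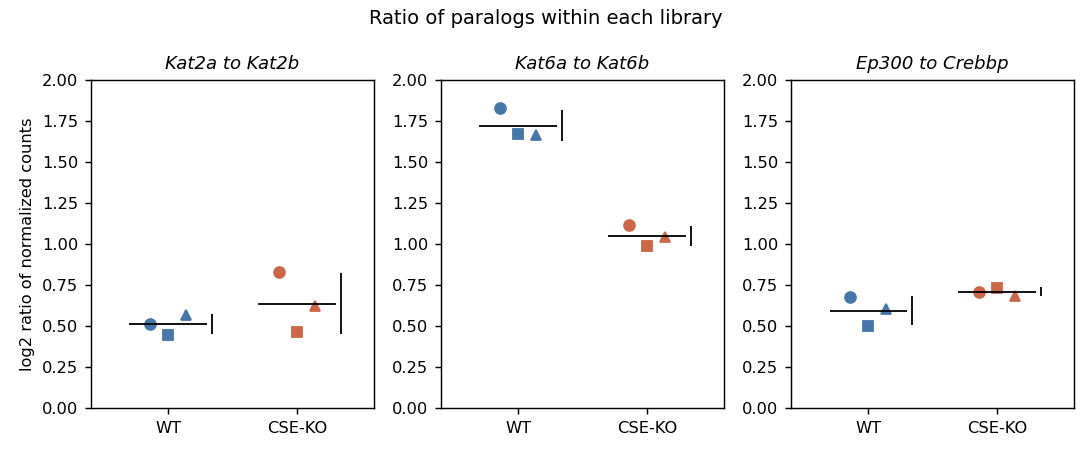
Log2 ratio of normalized counts (vertical axis) of 3 paralog pairs in each WT (blue) and CSE-KO (orange) library. Circles, squares and triangles are libraries 1, 2 and 3, horizontal lines are means and vertical bars are ± 1 SD. The ratio of Kat6a to Kat6b moved from a mean of 1.72 to 1.05, and the Kat2a to Kat2b ratios of the groups overlap.

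Genes of complex subunits and other partners, of other acetyltransferases and of acetyl-lysine readers were taken from 8 lists, and are called partner genes here. The lists hold 85 genes, of which 82 were tested. Among them 37 rose, 27 fell and 18 did not pass, with a median log2 fold change of 0.07 (0.00 over all tested genes). Scaled to equal totals, 45 were called higher and 21 lower, and with upper-quartile scaling 45 and 24. Over all tested genes, equal totals gave 6007 higher and 4765 lower, where 5270 and 5369 were called without it. The share called, 78.0%, is near the 77.4% of all genes. Subunits of one complex moved both ways in each of the complexes with more than 3 listed subunits.

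Of 17 subunits of the NuA4 complex, the home of KAT5, 11 rose and 3 fell (median log2 fold change 0.21). The share called was 82.4%, against 77.4% of all tested genes (38.3% higher and 39.0% lower). Whether these subunits moved together with Kat5 was not tested. Dmap1, named for its binding to a DNA methyltransferase, gave 187, 190 and 172 (WT) and 343, 345 and 353 (CSE-KO) (1.90-fold, adjusted p = 7.1e-08). The reader subunit Ing3, which binds methylated histone H3, was at 246, 244 and 245 against 422, 433 and 408 (1.72-fold, adjusted p = 4.5e-08), and Mrgbp at 191, 168 and 179 against 247, 241 and 260 (1.39-fold, adjusted p = 5.5e-05). Separate groups were a condition for naming these 3 genes, and 80.4% of all tested genes had separate groups. The scaffold Trrap went the other way, at 2344, 2317 and 2385 against 1570, 1441 and 1482 (log2 fold change −0.65, adjusted p = 9.7e-09). Ep400 (log2 fold change −0.45) and Meaf6 (−0.42) were the others that fell, and were named after their values were seen.

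SAGA and ATAC, the complexes of KAT2A and KAT2B, had 9 of 21 subunits higher and 6 lower (median 0.10). With equal totals, and with upper-quartile scaling, 12 were higher and 5 lower. With WT counted as 1 sample, 9 were higher and 3 lower, and these counts were the same when CSE-KO 2 and 3 were also counted as 1. Of the paralogous adaptors Tada2a and Tada2b, Tada2a rose 1.66-fold (from 228 ± 11.5 to 379 ± 18.0, adjusted p = 4.5e-07) while Tada2b, with 367, 370 and 355 (WT) and 383, 352 and 376 (CSE-KO), missed the threshold (adjusted p = 0.651). The difference between the adaptors was not tested. The adaptor Tada3 rose 1.47-fold (from 353.3 ± 22.4 to 521 ± 41.3, adjusted p = 2.1e-05). The SAGA subunit Tada1 fell by 0.56 in log2 units (from 400 ± 7.81 to 270.3 ± 8.33, adjusted p = 6.3e-07), as did Trrap, which SAGA shares with NuA4.

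The MOZ/MORF and HBO1 complexes, which hold KAT6A, KAT6B and KAT7, had 4 of 8 tested subunits higher and 4 lower (median 0.03). The JADE scaffolds, which direct KAT7 to histone H4, were split. Jade2 gave 1013, 1005 and 1035 (WT) and 481, 456 and 420 (CSE-KO) (log2 fold change −1.17, adjusted p = 3.0e-09). Jade1 fell too, from 718, 717 and 709 to 409, 412 and 402 (−0.81, adjusted p = 3.6e-09), and Jade3 rose from 260, 253 and 253 to 381, 384 and 375 (0.57, adjusted p = 4.4e-07). The BRPF scaffolds, which direct the enzymes to histone H3, rose. Brpf1 went from 627.7 ± 14.6 to 844.3 ± 15.3 (1.35-fold, adjusted p = 2.7e-07), and Brpf3 and Brd1, named after their values were seen, had log2 fold changes of 0.37 and 0.22.

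MSL and NSL subunits, the partners of KAT8, rose in 5 and fell in 4 of 11 (median 0.09). With WT counted as 1 sample, alone or along with CSE-KO 2 and 3 as 1 sample, 3 were called higher and 4 lower. Phf20, a methyl-lysine reader of NSL, fell by 0.52 in log2 units (from 701.3 ± 25.2 to 490.3 ± 25.0, adjusted p = 9.1e-07) and Msl1, the scaffold of MSL, by 0.45 (from 1023 ± 18.9 to 747.7 ± 46.1, adjusted p = 2.2e-06). Kansl1, the scaffold of NSL, rose 1.29-fold (from 880.3 ± 5.51 to 1139 ± 45.5, adjusted p = 8.9e-07). Ogt, which adds N-acetylglucosamine to proteins, fell from 1912 ± 108 to 1517 ± 19.3 (log2 fold change −0.33, adjusted p = 1.4e-05). Of the 3 HAT1 partners, Rbbp7, its histone-binding subunit, rose from 776.7 ± 13.1 to 822 ± 5.57 (log2 fold change 0.08, adjusted p = 0.019, and 0.076 without WT 3), and 2 did not pass.

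**Figure D5:**
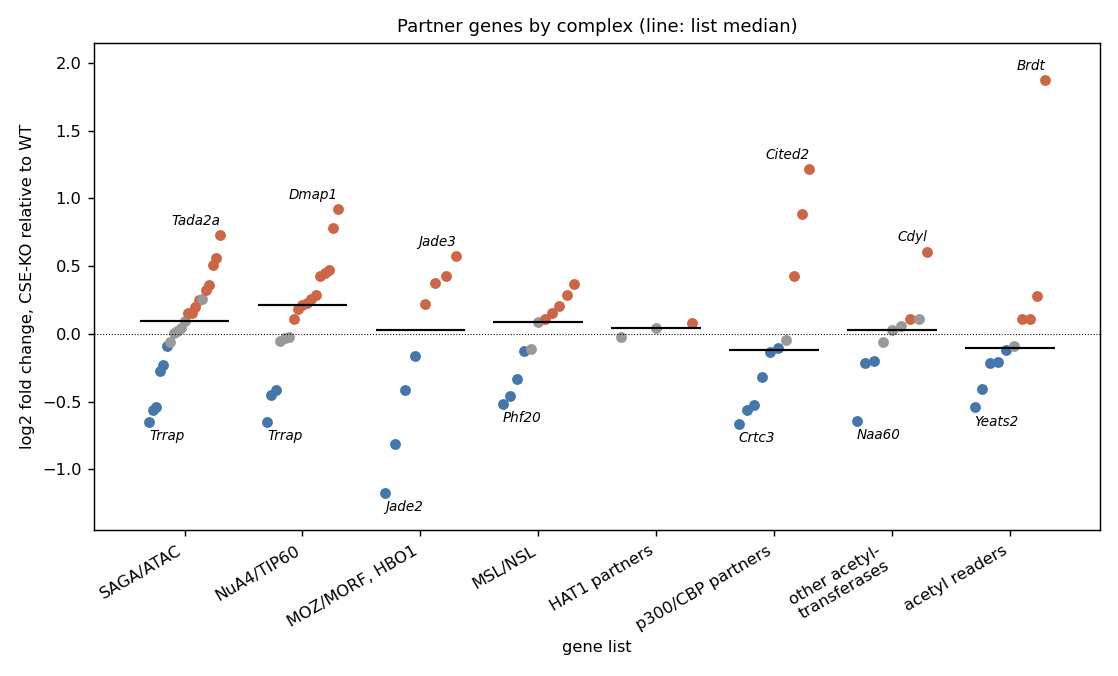
Log2 fold change (vertical axis, CSE-KO relative to WT) of each tested partner gene, grouped by list on the horizontal axis. Orange points rose, blue points fell, grey points did not pass, black lines are list medians, and the genes at the ends of most lists are named. Trrap, Meaf6, Wdr5, Kat14, Yeats2, Yeats4 and Taf1 each appear in more than one list, so the lists are not independent. Medians lie between −0.12 and 0.21.

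Among partners of p300 and CBP, 3 of 10 tested genes rose and 6 fell (median −0.12). Cited2, which competes with hypoxia-inducible factor for the same domain of p300 and CBP, gave 546, 520 and 539 (WT) and 1217, 1241 and 1272 (CSE-KO). The rise was 2.32-fold (log2 fold change 1.22, SE 0.03, adjusted p = 1.7e-10). Ncoa1, a nuclear receptor coactivator that binds p300, rose from 242.3 ± 17.0 to 446.7 ± 11.5 (1.84-fold, adjusted p = 9.1e-08). Crtc3, a CREB coactivator, fell by 0.67 in log2 units (from 848.7 ± 14.4 to 534.7 ± 15.5, adjusted p = 1.5e-08) and Eid1, an inhibitor of p300 and CBP, by 0.56 (from 488.3 ± 2.31 to 330.3 ± 10.7, adjusted p = 2.5e-07).

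Other acetyltransferases reported to act on histones rose in 2 and fell in 3 of 9 (median 0.03). With equal totals 5 were called higher and 2 lower, with upper-quartile scaling 5 and 3, and with WT counted as 1 sample 1 and 2. Naa60, an N-terminal acetyltransferase of the Golgi, fell by 0.64 in log2 units (from 488.3 ± 3.06 to 313.3 ± 12.7) and Naa40, which acetylates the N-termini of histones H4 and H2A, by 0.20 (from 417.3 ± 11.4 to 364.7 ± 28.7, adjusted p = 0.0083). The Naa40 call was lost with equal totals (adjusted p = 0.073) and with WT counted as 1 sample (0.098). Cdyl, a chromodomain protein, rose 1.52-fold (from 346 ± 5.29 to 527.7 ± 24.4), and Taf1, a subunit of TFIID that also has bromodomains, fell by 0.21 (from 1150 ± 25.1 to 992 ± 13.9).

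Readers of acetylated lysine rose in 4 and fell in 5 of 10 (median −0.10). Those called higher were 2 without WT 3, without CSE-KO 3 and with WT counted as 1 sample. The bromodomain gene Brd2 gave 1649, 1628 and 1682 (WT) and 1974, 1989 and 2076 (CSE-KO) (1.22-fold, adjusted p = 1.3e-06). Its paralog Brd3 moved down, from 631, 637 and 612 to 500, 437 and 487 (log2 fold change −0.40, adjusted p = 1.8e-05). Yeats2, the YEATS domain reader of the ATAC complex, fell by 0.54 in log2 units (from 814 ± 27.6 to 559.3 ± 28.3). Brdt, known as a testis bromodomain gene and named after its values were seen, was low, with 12, 11 and 12 (WT) and 42, 55 and 37 (CSE-KO) (log2 fold change 1.87, adjusted p = 1.0e-05).

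Marker genes of cell types and of the cell cycle moved in the same libraries, where 38.3% of all tested genes were called higher and 39.0% lower. Endothelial markers fell in 13 of 16 and rose in 0, with summed normalized counts of 21331 to 21747 in WT and 13677 to 14744 in CSE-KO. Cdh5, the endothelial cadherin (2829 ± 17.8 and 2673 ± 6.43), and Eng (2466 ± 52.3 and 1895 ± 47.8) had the highest means. Their log2 fold changes, −0.08 and −0.38, were smaller in size than the median of the 16 markers, −0.68. Lymphatic markers fell in 4 of 5 and rose in 1 (sums of 12284 to 12483 and 4789 to 6285), with Flt4 at 4238 ± 72.8 and 2004 ± 304 and Prox1 at 2788 ± 16.1 and 831.7 ± 219. Macrophage markers rose in 8 of 9 tested (sums of 921 to 949 and 1225 to 1358 over 10 genes). Most of the WT sums came from Cd14, which fell, so the sums understate the rise of the others. Adgre1, Itgam, Ptprc and Marco were at 0 in all WT libraries, Lyz2 was at 31.0 ± 7.21 and 437.7 ± 29.0, and Cd14 moved the other way, at 779.3 ± 7.51 and 239.3 ± 67.1.

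Fibroblast and mural markers rose in 2 and fell in 2 of 7 (sums of 1390 to 1474 and 1697 to 2038), with Col1a1 at 575.7 ± 4.51 and 446.7 ± 110 and Acta2 at 259 ± 11.1 and 627.3 ± 23.03. Epithelial and mesothelial markers rose in 3 of 4 tested (sums of 11 to 27 and 122 to 169), with the mesothelial genes Msln at 2.67 ± 1.53 and 54.3 ± 4.93 and Upk3b at 1.00 ± 0.00 and 39.3 ± 10.02. The lymphocyte marker Cd79a was at 1 to 3 in every library. All 8 mitosis genes fell, of which 2 were called with WT as 1 sample and CSE-KO 2 and 3 as 1 sample (sums of 9235 to 9399 and 1951 to 3205), with Mki67 at 3106 ± 42.7 and 768.7 ± 250, Cenpf at 1635 ± 27.3 and 181 ± 120, Plk1 at 646.7 ± 3.21 and 134.3 ± 57.0 and Aurkb at 423 ± 2.00 and 114.7 ± 40.2. The part of these shifts in the changes of the acetyltransferase genes was not tested, and in bulk RNA fewer cells of a type and less RNA per cell cannot be told apart.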

How the data were processed

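RNA sequencing of 6 libraries (3 WT, 3 CSE-KO) was read from 1 deposited table. The submitters' processing notes list, without role or order, DESeq2 1.26.0, featureCounts 1.6.5, STAR 2.7.3a, Trimmomatic 0.39 and Picard 2.21.7, and build mm10. The deposited values are a whole-number score per gene, read as a rounded normalized count because median-ratio factors recomputed from them lie between 1.0026 and 1.0083. No header states the unit. Raw counts were not used here, so depth in reads is known only approximately.

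Genes that reached 10 in 3 or more libraries were fitted as log2(value + 0.5) with limma 3.58.1 in R 4.3.3 (group only, mean trend, robust variances, two-sided). Fold changes are on that scale, which understates low genes. The model was first run on simulated counts with the same relative spread beyond counting noise for all genes and libraries. That simulation does not cover a library that stands apart from its group, as CSE-KO 1 did. Exonic lengths came from GENCODE release M21, whose coordinates matched the table for all 10 genes, and promoter windows from RefSeq. The members and gene lists were chosen with earlier results of these data known. Named partners are, per list, up to 4 called genes with the largest change, a mean of at least 50 and groups apart, and per marker list the 2 genes with the highest mean. Paralog ratios were compared by exact permutation. Alternatives covered scaling, filters, pseudocount, moderation, a fold threshold, left-out libraries, a replicate block and merged libraries.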

Additional observations from a re-analysis of the deposited data

How the results depend on the processing

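Kat8, Kat5, Kat2b, Kat2a and Kat6a kept their direction and their call under all 19 alternatives, with log2 fold changes between 0.77 and 0.87, 0.41 and 0.53, −0.73 and −0.63, −0.66 and −0.50, and −0.52 and −0.42. A test against a fold of 1.2 called 2 of the 10 genes higher and 3 lower (4 and 4 against no change), 16 partner genes higher and 13 lower (37 and 27) and 3182 of all genes higher and 3529 lower (5270 and 5369); it ended the calls of Kat6b, Kat7 and Ep300, since it asks for a larger change. The value of Hat1, which passed under no alternative, changed sign to 0.041 with upper-quartile scaling and 0.065 with equal totals, to 0.023 without WT 1 and 0.019 without CSE-KO 3, and ranged from −0.029 to 0.023 with 1 library left out, where that of Crebbp ranged from −0.0030 (without WT 1) to 0.070. The cause was not tested. With WT counted as 1 sample and CSE-KO 2 and 3 as 1 sample, Kat6b (adjusted p = 0.057) and Kat7 (0.055) lost their calls, as did 9 of the 45 called genes named outside the 10, among them the mitosis genes Cenpf, Plk1, Mki67 and Aurkb. With only WT counted as 1 sample 3 of the 45 lost theirs (Cenpf, Rbbp7 and Naa40). Cdh5 lost its call with upper-quartile scaling (−0.03) and equal totals (−0.01). Equal totals moved the median of all genes to 0.07. The replicate numbers did not pair the libraries (correlations of deviations of −0.00079, 0.020 and 0.011 for equal numbers), not every library correlated best with its own number, and the replicate block gave 4 higher and 4 lower of the 10 genes, 37 and 26 partner genes and 5171 and 5269 of all genes. The paralog differences ranged from 0.03 to 0.21 for Kat2a to Kat2b, −0.71 to −0.62 for Kat6a to Kat6b and 0.07 to 0.16 for Ep300 to Crebbp when 1 library was left out. Among the partner genes, Ing4, Cited1 and Cited4 were too low to test, and the part of depth in this was not tested.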
